A study of Mus musculus with 24 samples.

Results

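The response of calf muscle to a growing tumour was examined in 12 female C57BL6 mice. Of the 43346 genes of the deposited count table, 13812 autosomal genes were kept, namely those with at least 1 CPM (the count of a gene scaled to the library's total) in 6 or more of the 12 female libraries. Of the mice, 6 were given LLC1 cells, labelled as a lung adenocarcinoma line, by subcutaneous injection when 7 weeks old. The other 6 females had received phosphate-buffered saline as vehicle, and all 12 gave gastrocnemius muscle after 3 weeks of tumour growth. The whole series holds 24 libraries, since males were treated in the same way, and the study also assessed muscle mass, strength and mitochondrial function, which were not analysed here. All mice were C57BL6, and no transgene is named in the labels. Tumour size and muscle weight of each mouse were not used here.

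Loss of muscle in animals with tumours is called cachexia. In the textbook account, cytokines of the interleukin 6 (IL-6) family act through the kinase JAK and the transcription factor STAT3, and glucocorticoids and reduced insulin signalling free the FoxO transcription factors. These factors raise the muscle ubiquitin ligases that mark contractile proteins for the proteasome, while autophagy delivers organelles to the lysosome. Mitochondrial enzymes, matrix genes and contractile genes are commonly described as falling during wasting.

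The libraries held 26.2 to 45.1 M (mega-counts), with means of 37.6 ± 3.29 M in LLC1 and 37.2 ± 6.48 M in vehicle mice (SD, n = 6 per group, exact two-sided permutation p = 0.913). The female label held, with 8217 to 15453 counts of the X-inactivation transcript Xist and 0 to 2 counts of the Y-linked Ddx3y per library. The tissue was skeletal muscle as labelled, since 10 skeletal muscle fibre markers summed to between 155309 and 195651 CPM. These markers do not tell gastrocnemius from other muscles. Epithelial markers, which could report tumour cells, summed to 1.48 to 13.2 CPM in LLC1 and 1.79 to 6.86 CPM in vehicle mice. The lung epithelial genes Sftpc and Nkx2-1 had 0 counts in all 12 libraries, where 3 counts would correspond to 0.0664 to 0.115 CPM. Whether LLC1 cells express any of these markers was not examined, so the presence of tumour cells in the muscle was not tested. Each group was sequenced in a lane of its own (lane 5 for LLC1 and lane 6 for vehicle), which means that an effect of the lane and one of the tumour cannot be told apart. Each library was taken as a mouse of its own from its number in the labels, and the tests measure variation among these libraries alone.

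Some mice stood apart from the rest of their own group. LLC1 mouse 2-4 had a summed erythroid marker level of 19989 CPM, against 1726 to 3886 CPM in the other 5 LLC1 mice. LLC1 mice 2-4 and 2-5 and vehicle mouse 2-3 lay at the same end of an axis that ran through both groups. It is shown by the second principal component of the 2000 most variable genes (25.8% of the variance). The first component (39.5%) separated the groups, with scores of -21.27 to -14.33 for LLC1 and 12.73 to 20.68 for vehicle mice. After removal of the group means, the axis took up 45.3% of the variance within groups. Its scores ran from -19.0 (LLC1 mouse 2-5), -16.7 (LLC1 mouse 2-4) and -15.1 (vehicle mouse 2-3) to 12.0 (LLC1 mouse 1-5) and 15.1 (vehicle mouse 1-1).

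Connective tissue genes carried this axis at its positive end and sarcomere genes, not those of slow fibres alone, at its negative end. Among the 2000 genes, 51 of 53 non-collagen matrix genes, 24 of 27 collagens, 16 of 16 macrophage markers, 7 of 7 tendon cell markers and 15 of 16 immediate early genes had positive loadings. All 11 slow-fibre sarcomere genes, 7 Schwann cell markers and 8 erythroid markers had negative ones. So had 3 of 3 fast-fibre genes, 7 of 8 cardiac, embryonic and stretch-response genes and 7 of 8 Z-disc, M-band and thin-filament genes. The erythroid sum was by far the highest in LLC1 mouse 2-4, at 19989 CPM. In other mice it did not follow the axis, at 2367 CPM in LLC1 mouse 2-5, 1166 CPM in vehicle mouse 2-3 and 1642 CPM in vehicle mouse 1-1. Fmod, a tendon and matrix proteoglycan, had 22.1, 42.8 and 46.0 CPM in LLC1 mice 2-5 and 2-4 and vehicle mouse 2-3 and 77.3 to 303 CPM in the other 9. Dbp, a clock output gene marked as sharing reads with an overlapping gene, ran the other way, at 57.7 CPM in LLC1 mouse 2-4, 75.4 CPM in LLC1 mouse 2-5 and 92.0 CPM in vehicle mouse 2-3. The remaining LLC1 mice had 24.7 to 40.1 CPM of Dbp. Vehicle mice 2-1 and 2-2 had 69.4 and 71.5 CPM, both above LLC1 mouse 2-4, and the remaining vehicle mice 32.9 to 37.2 CPM. In vehicle mice the axis scores split by first title number, 1.8 to 15.1 for number 1 and -15.1 to -4.1 for 2. In LLC1 mice they did not, since mice 2-1 and 2-3 scored 9.3 and 6.7. These values describe a difference among mice of the same group. Its part in the results below was not tested beyond leaving out each mouse in turn and fits with a block by title number.

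**Figure D1:**
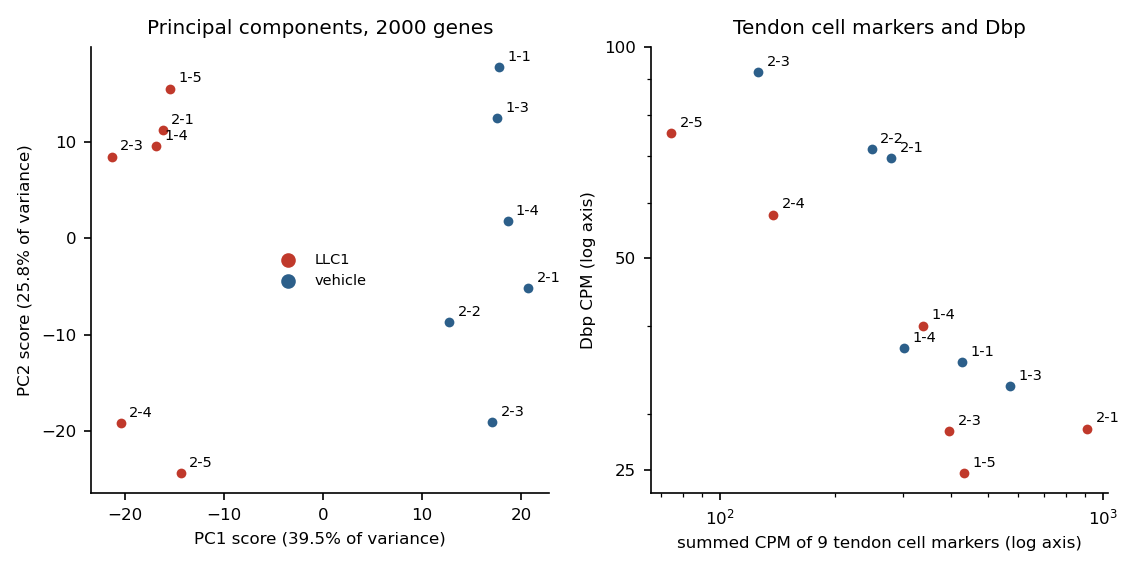
Left, scores of the 12 female libraries on the first and second principal components of the 2000 most variable genes, labelled by mouse number (red LLC1, blue vehicle). Right, the summed CPM of 9 tendon cell markers against the CPM of Dbp, both on log axes. LLC1 and vehicle mice separate along the first component, and in both groups mice low in tendon cell markers are high in Dbp.

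The question of the comparison was which genes differ in muscle between tumour-bearing and vehicle females. Counts were compared with edgeR's quasi-likelihood test over the 14295 genes of all chromosomes that passed the CPM minimum, and a gene was called at a Benjamini-Hochberg adjusted p under 0.05. LLC1 mice had 1272 of the 13812 autosomal genes higher (9.21%) and 1046 lower (7.57%), or 2318 in either direction (16.8%). These shares are the background against which gene lists are read. The 6 LLC1 mice did not overlap the 6 vehicle mice for 986 genes (7.14%). Changes were mostly small, with a median log2 fold change of 0.38 among the genes called higher and -0.43 among those called lower. Among the higher genes, 123 rose at least 2-fold, 47 at least 4-fold and 6 at least 16-fold, against 71, 2 and 0 among the lower ones. The higher genes include 26 that passed the CPM minimum through the LLC1 libraries alone, which had to differ. The median over all 13812 genes was 0.00. Without LLC1 mouse 2-3 the number called higher was 818, and with the spread estimated over all 24 libraries it was 767 (5.55%), with 816 (5.91%) lower. For list counts of 4 or more, the count in that fit of all 24 libraries and the counts without single mice are given where they differ by over 1.5 times. A set of 1383 genes, 758 higher and 625 lower, kept its call, sign and size (within 1.5 times) in each of the 12 fits that left out 1 mouse.

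**Figure D2:**
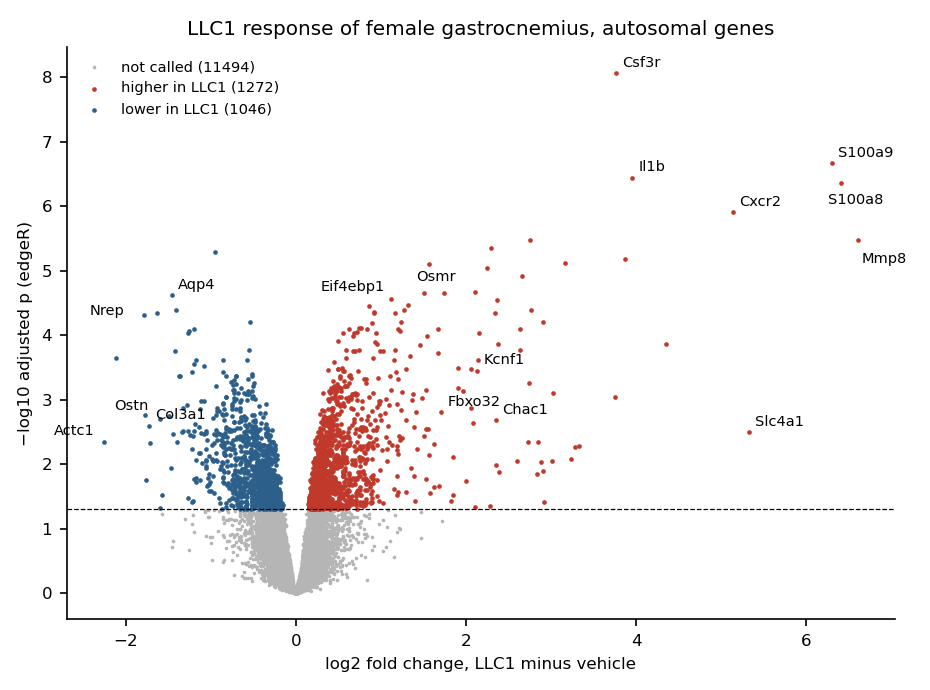
Each point is 1 of 13812 autosomal genes, with the log2 fold change (LLC1 minus vehicle, females) on the horizontal axis and −log10 of the edgeR adjusted p on the vertical axis. The dashed line marks an adjusted p of 0.05, with 1272 genes called higher in red and 1046 called lower in blue. The right side extends further than the left, up to Mmp8 and S100a8, neutrophil genes that passed the CPM minimum through the LLC1 libraries alone.

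Both ubiquitin ligases best known from muscle wasting rose. Fbxo32 (ENSMUSG00000022358, mm10 chromosome 15, 58175879 to 58214892), which encodes the ligase atrogin-1, had 478 to 1414 CPM in LLC1 mice, with a median of 683, and 142 to 321 CPM in vehicle mice, with a median of 274. The groups did not overlap. Fbxo32 rose by 1.71 ± 0.27 on the log2 scale (± SE here and below, adjusted p = 0.00157). Trim63 (ENSMUSG00000028834, chromosome 4, 134315120 to 134329629), which encodes the ligase MuRF1 of the sarcomere, had 281 to 797 CPM with LLC1 (median 504) and 171 to 276 CPM without (median 214). Every LLC1 mouse was above every vehicle mouse, the lowest of them only just, and the change was 1.22 ± 0.23 (adjusted p = 0.00428). Of 24 muscle ubiquitin ligases, 6 rose and 1 fell, with a list median of 0.07. Fbxo31, a ligase subunit linked to cyclin turnover, rose by 0.41 ± 0.08 (adjusted p = 0.00610). Trim55, the MuRF2 ligase of the sarcomere, fell by 0.28 on the log2 scale (SE 0.06, adjusted p = 0.00906).

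Of 33 proteasome subunits, 11 rose and none fell, against a background of 9.21% higher, and the median was 0.15. In the fit of all 24 libraries only 2 of the 33 rose in females, against a background of 5.55%. Psmd2, a scaffold subunit of the cap, had 366 to 457 CPM in LLC1 mice (median 405) and 265 to 312 CPM in vehicle mice (median 289). The groups lay apart, and Psmd2 rose by 0.49 ± 0.07 (adjusted p = 0.000568). Psmd11 and Psmd3, also of the cap, rose by 0.43 ± 0.06 and 0.42 ± 0.06 (adjusted p = 0.000704 and 0.000734). Of the catalytic chain genes, Psmb5 was at -0.09 (adjusted p = 0.589), Psmb6 at -0.04 (0.792) and Psmb7 at -0.04 (0.751). Among 24 genes of ubiquitin and the factors that carry marked proteins to the proteasome, 7 rose and 1 fell, but 1 rose and 0 fell in the fit of all 24 libraries. The 7 include Nploc4, a cofactor of the unfolding enzyme p97, at 0.52 ± 0.07 (adjusted p = 0.000431), Psme4, a proteasome activator, at 0.38 ± 0.06 (0.00191) and Ubxn4, at 0.36 ± 0.06 (0.00248).

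Of 35 autophagy genes, 12 rose and 1 fell, with a median of 0.15. Bnip3, a mitophagy receptor, had 300 to 451 CPM with LLC1 (median 313) and 173 to 261 CPM without (median 201). These ranges did not meet, and the change was 0.72 ± 0.12 (adjusted p = 0.00165). The cargo receptor Sqstm1 (p62) rose by 0.57 ± 0.09 (adjusted p = 0.00127) and Map1lc3b, which encodes the LC3B protein of the autophagosome membrane, by 0.51 ± 0.08 (0.000909). In the lysosome, 7 of 37 genes rose and none fell, at a median of 0.04 (3 of 37 in the fit of all 24 libraries). Npc1, which exports cholesterol from lysosomes, rose by 0.83 ± 0.15 (adjusted p = 0.00291), and Gaa, which breaks down lysosomal glycogen, by 0.58 ± 0.08 (0.000613). Among 18 calpains and caspases, only the inflammatory caspase gene Casp4 was called, at 1.12 ± 0.16 (adjusted p = 0.000704), from 1.34 to 1.84 CPM in vehicle mice to 2.62 to 4.68 CPM in LLC1 mice.

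Genes of insulin-like growth factor (IGF), insulin and FoxO signalling moved in both directions, with 8 of 26 higher and 4 lower. The 8 were 5 in the fit of all 24 libraries and without LLC1 mouse 2-3 or vehicle mouse 2-1 or 2-3. Foxo1 and Foxo3, the FoxO factors most often tied to atrophy, were at 0.80 ± 0.33 (adjusted p = 0.123) and 0.50 ± 0.13 (0.0236). The call of Foxo3 was lost without LLC1 mouse 2-3 (adjusted p = 0.0589) or vehicle mouse 2-1 (0.0564) or 2-3 (0.0513). Foxo6 went the other way. It had 0.476 to 2.58 CPM in LLC1 and 3.33 to 5.17 CPM in vehicle mice, a fall of 1.77 on the log2 scale (SE 0.29, adjusted p = 0.00172). Foxo6 needed the vehicle libraries to pass the CPM minimum, so its difference follows in part from the filter. Its antisense transcript Foxo6os fell by 2.11 (SE 0.25, adjusted p = 0.000228), and the library kit keeps no strand. The signalling kinase genes Akt1 and Gsk3b rose by 0.61 ± 0.09 and 0.51 ± 0.07 (adjusted p = 0.00103 and 0.000635). Grb14, an inhibitor of the insulin receptor, fell by 1.25 (SE 0.14, adjusted p = 8.52e-05), with 4.07 to 5.85 CPM in LLC1 and 9.73 to 16.3 CPM in vehicle mice. Igf1 itself, the muscle growth factor, had 11 to 31.3 CPM with LLC1 and 16 to 35.7 CPM without (-0.37 ± 0.25, adjusted p = 0.335).

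Mstn, which encodes the growth inhibitor myostatin, did not pass the test, with medians of 85.4 CPM in LLC1 and 83.1 CPM in vehicle mice (0.10 ± 0.16, adjusted p = 0.700). Around it, 5 of 33 genes of myostatin, activin and TGF-beta signalling rose and 2 fell, and 3 rose without LLC1 mouse 2-3 or in the fit of all 24 libraries. Acvr2a, a receptor for activin and myostatin, rose by 0.38 ± 0.06 (adjusted p = 0.00140), and Fst, which encodes their antagonist follistatin, fell by 0.85 (SE 0.17, 0.00470). Downstream of insulin lies mTORC1, the kinase complex that drives protein synthesis. Eif4ebp1 (ENSMUSG00000031490, chromosome 8, 27260327 to 27275656), whose product blocks cap-dependent translation when mTORC1 is inactive, had 44.8 to 75.0 CPM in LLC1 mice (median 62.7) and 26.2 to 32.6 CPM in vehicle mice (median 27.7). The 2 ranges were well separated, with a change of 1.12 ± 0.10 (adjusted p = 2.76e-05). Sesn1, an inhibitor of mTORC1, and Tsc1, a subunit of another, rose by 0.66 ± 0.15 and 0.32 ± 0.06 (adjusted p = 0.00872 and 0.00239). Of the 24 regulators listed, 4 rose and 0 fell.

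Of 23 tested genes of the IL-6 family and STAT3, 14 rose and 1 fell, with a median of 0.52. At the receptor level, Osmr (ENSMUSG00000022146, chromosome 15, 6813577 to 6874969), which encodes the oncostatin M receptor, had 24.1 to 44.7 CPM in LLC1 mice (median 30.5) and 10.1 to 13.3 CPM in vehicle mice (median 11.6). No value of one group fell within the other, and the change was 1.51 ± 0.14 (adjusted p = 2.25e-05). Il6ra, the IL-6 receptor, had 12.7 to 24.4 CPM with LLC1 and 3.74 to 9.76 CPM without, again apart (1.25 ± 0.24, adjusted p = 0.00397). Il11ra1, the interleukin 11 receptor, was the gene of the list that fell, by 0.29 (SE 0.07, adjusted p = 0.00917). Stat3 had 70.4 to 217 CPM in LLC1 and 56.6 to 69.0 CPM in vehicle mice (1.01 ± 0.21, adjusted p = 0.00614), so the lowest LLC1 mouse was just above the highest vehicle mouse.

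Socs3, a feedback inhibitor of JAK, had 6.26 to 21.9 CPM (median 13.9) against 3.20 to 6.15 CPM (median 5.15), with groups that did not overlap (1.55 ± 0.27, adjusted p = 0.00287). Bcl3, an atypical member of the family of NF-kappaB inhibitors, rose by 1.48 ± 0.23 (adjusted p = 0.000957). Vehicle mouse 1-1 had 1.58 CPM of Bcl3 and the other vehicle mice 0.624 to 0.930 CPM. Bcl3 thus needed the LLC1 libraries to pass the CPM minimum, and its difference follows in part from the filter. Cebpd, a transcription factor of the acute phase response, rose by 1.62 ± 0.31 (adjusted p = 0.00492), and the proto-oncogene Myc by 1.08 ± 0.19 (0.00256). Cish, a feedback inhibitor of the STAT5 branch, had 4.75 to 41.5 CPM in LLC1 mice (median 10.2) and 1.79 to 3.18 CPM in vehicle mice (median 2.49), and rose by 2.73 ± 0.51 (adjusted p = 0.00450). Within the LLC1 group, mice 2-4 and 2-5 held the highest Cish levels, at 41.5 and 24.2 CPM.

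The promoters of Cish and Socs3 are shown because they were the only members of this list whose RefSeq promoter held the STAT palindrome, TTCNNNGAA. Promoters cover 250 bases before to 50 after the annotated start (RefSeq, GRCm38.p6) and were matched by symbol, which gave a promoter for 9378 of the 13812 genes. The palindrome, searched on both strands, was in 2 of 20 list genes with a promoter, in 8.31% of the 9378 genes and in 8.35% of all 31396 promoters. Capitals mark the matches.
Cish, chr9:107296409-107296708, plus strand: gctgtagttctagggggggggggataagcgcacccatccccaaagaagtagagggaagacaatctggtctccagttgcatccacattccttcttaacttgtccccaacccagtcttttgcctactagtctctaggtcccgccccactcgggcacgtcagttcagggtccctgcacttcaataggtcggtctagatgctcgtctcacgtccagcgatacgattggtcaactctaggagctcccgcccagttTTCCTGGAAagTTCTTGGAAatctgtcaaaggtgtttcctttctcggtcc
Socs3, chr11:117969317-117969616, minus strand: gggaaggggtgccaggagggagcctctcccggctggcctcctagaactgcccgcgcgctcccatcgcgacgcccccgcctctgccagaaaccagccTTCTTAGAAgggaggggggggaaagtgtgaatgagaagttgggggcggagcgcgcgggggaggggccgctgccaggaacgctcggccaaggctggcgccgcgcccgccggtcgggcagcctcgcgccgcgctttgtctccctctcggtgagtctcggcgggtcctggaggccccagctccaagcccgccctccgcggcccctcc
The match of Socs3 began 154 bases before the start, and the first of 2 matches of Cish began at the start itself. A match is a run of letters and not a site shown to be bound.

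In NF-kappaB and TWEAK signalling, 8 of 25 genes rose and 1 fell, with a median of 0.17. The 8 became 4 without LLC1 mouse 1-4, 1-5 or 2-3 and 5 without vehicle mouse 1-3, 1-4, 2-1, 2-2 or 2-3. The adhesion molecule gene Icam1 rose by 0.81 ± 0.17 (adjusted p = 0.00668), the tumour necrosis factor receptor gene Tnfrsf1a by 0.58 ± 0.13 (0.00960), and the kinase gene Map3k14 of the noncanonical branch by 0.51 ± 0.11 (0.00902). Of 16 tested acute phase and complement genes, 1 was called. It was Lcn2, which encodes the iron-binding lipocalin 2 and had 3.26 to 8.77 CPM in LLC1 and 0.461 to 1.78 CPM in vehicle mice (2.74 ± 0.37, adjusted p = 0.000561). Like Bcl3, Lcn2 needed the LLC1 libraries to pass the CPM minimum, so its difference follows in part from the filter. In the interferon list, 4 of 40 rose and 3 fell at a median of -0.10, and 2 rose without LLC1 mouse 1-4 or 1-5 or any vehicle mouse other than 1-3. Oas2, an antiviral RNA sensor, rose by 0.71 ± 0.18 (adjusted p = 0.0164), and Cd274, which encodes the checkpoint ligand PD-L1, fell by 0.72 (SE 0.12, 0.00220).

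Of 23 glucocorticoid-responsive genes, 8 rose and 0 fell, with a median of 0.45. Lcn2, which needed the LLC1 libraries to pass the CPM minimum, Cebpd, Sesn1, Ampd3 and the metallothioneins belong to this list too. The lists are therefore not separate evidence. Errfi1, a feedback inhibitor of the epidermal growth factor receptor, rose by 0.49 ± 0.10 (adjusted p = 0.00521). Pdk4, the kinase that shuts off pyruvate oxidation, varied widely, from 140 to 1298 CPM in LLC1 mice and 98.7 to 643 CPM in vehicle mice. With that spread its change of 1.72 ± 0.62 did not pass (adjusted p = 0.0769).

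Metallothioneins are small proteins that bind zinc and copper. Mt1 had 16.1 to 98.3 CPM in LLC1 mice (median 56.7) and 10.3 to 21.5 CPM in vehicle mice (median 16). Mt2 had 7.66 to 99.5 CPM (median 58.2) against 4.42 to 20.3 CPM (median 9.48). The groups overlapped for both genes, with LLC1 mouse 2-4 the lowest of its group in each. The changes were 1.85 ± 0.39 for Mt1 and 2.39 ± 0.56 for Mt2 (adjusted p = 0.00770 and 0.0131). Slc39a14, a zinc and iron importer induced in inflammation, rose by 0.59 ± 0.13 (adjusted p = 0.00770). It was 1 of 3 genes that rose among the 19 of metallothioneins and zinc transport, while the mitochondrial zinc transporter gene Slc30a9 fell by 0.22 (SE 0.06, adjusted p = 0.0177).

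The promoters of Mt2 and Mt1 are shown for their metal-response cores, TGCACNC or TGCGCNC, the letters recognised by the zinc-sensing factor MTF1. They were in 9 of 17 list genes with a promoter, in 40.2% of the 9378 genes and in 25.9% of all promoters, on either strand. Capitals again mark the matches.
Mt2, chr8:94172368-94172667, plus strand: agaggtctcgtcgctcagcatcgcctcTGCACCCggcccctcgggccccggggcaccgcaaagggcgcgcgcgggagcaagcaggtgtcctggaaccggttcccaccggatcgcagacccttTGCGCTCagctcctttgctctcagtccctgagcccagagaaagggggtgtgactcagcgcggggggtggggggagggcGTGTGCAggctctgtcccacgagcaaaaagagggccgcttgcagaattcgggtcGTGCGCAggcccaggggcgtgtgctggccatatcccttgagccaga
Mt1, chr8:94178839-94179138, plus strand: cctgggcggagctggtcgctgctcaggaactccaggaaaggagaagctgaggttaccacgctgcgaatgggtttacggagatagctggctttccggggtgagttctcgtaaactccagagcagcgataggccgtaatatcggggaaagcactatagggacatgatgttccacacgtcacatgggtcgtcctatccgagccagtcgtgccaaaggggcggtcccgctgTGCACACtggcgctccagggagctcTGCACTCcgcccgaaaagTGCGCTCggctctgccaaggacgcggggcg
Mt2 held 4 matches and Mt1 held 3 within these 300 bases.

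Transcripts of neutrophils that were scarce in vehicle muscle were present in LLC1 muscle. S100a9 (ENSMUSG00000056071, chromosome 3, 90692632 to 90695721), which with S100a8 forms calprotectin of neutrophils, had 24 to 68.6 CPM in LLC1 mice (median 37.7) and 0.312 to 0.613 CPM in vehicle mice (median 0.569). Its partner S100a8 had 14.4 to 47 CPM against 0.191 to 0.471 CPM. The groups were far apart for both, with log2 fold changes of 6.30 ± 0.31 and 6.40 ± 0.35. The granule collagenase gene Mmp8 was at 6.60 ± 0.47 and the chemokine receptor gene Cxcr2 at 5.14 ± 0.33. Il1b, which encodes the cytokine interleukin 1 beta, had 3.09 to 6.11 CPM in LLC1 and 0.115 to 0.373 CPM in vehicle mice. These 5 genes reached the CPM minimum through the LLC1 libraries alone, so that their difference follows in part from the filter and their values are a description. Csf3r, the receptor for the neutrophil growth factor G-CSF, reached 1 CPM in 4 vehicle libraries as well and rose by 3.76 ± 0.15 (adjusted p = 8.58e-09).

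Of the 18 neutrophil markers listed, 8 reached the CPM minimum. Besides S100a8, S100a9, Mmp8, Cxcr2 and Csf3r, these were Retnlg, Chil3 and Mmp9. Retnlg and Chil3 were at 4.35 ± 0.48 and 3.75 ± 0.55. Each had 1 vehicle library at 1 CPM and needed the LLC1 libraries to pass, so these values too are a description. Mmp9, a gelatinase, had 4.59 to 17.4 CPM in LLC1 and 1.93 to 6.85 CPM in vehicle mice and was not called (1.16 ± 0.40, adjusted p = 0.0624). So 7 of the 8 were called higher, 4 of them after passing through the LLC1 libraries alone and Retnlg and Chil3 with 1 vehicle library each. The 18 markers together summed to 69.9 to 214 CPM in LLC1 and 4.99 to 10.8 CPM in vehicle mice. Among the 10 below the minimum, Ly6g had 133 counts over the LLC1 libraries and 1 over the vehicle libraries, Ltf 325 and 2, and Ngp 370 and 3. Mpo and Elane, markers of immature granulocytes, stayed near 0, with 4 and 17 counts in LLC1 and 3 and 9 in vehicle libraries. The other 5, Camp, Trem1, Clec4d, Clec4e and Padi4, had 59 to 280 counts in LLC1 and 6 to 78 in vehicle libraries. In whole muscle, more cells of a type and more RNA per cell cannot be told apart.

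Erythroid markers were higher in LLC1 mice, most of all in mouse 2-4. Slc4a1, the anion exchanger of red cells, had 3.96 to 14.5 CPM in 5 LLC1 mice, 108 CPM in mouse 2-4 and 0.312 to 0.943 CPM in vehicle mice. The groups were apart with or without mouse 2-4. Its log2 fold change was 5.32 with that mouse and 3.83 without it, a description only, since Slc4a1 passed the CPM minimum through the LLC1 libraries alone. The haemoglobin gene Hba-a1 had 320 to 846 CPM in the other 5 LLC1 mice, 5729 CPM in mouse 2-4 and 128 to 302 CPM in vehicle mice. It rose by 2.90 ± 0.67 (adjusted p = 0.0126), and the value across the fits that left out 1 mouse ran from 1.67 to 3.10. Of 9 erythroid markers tested, 7 were called higher, not all of them independently of the filter, and 1 fell. The one that fell was Ank1, an ankyrin gene that muscle also expresses, at -0.56 ± 0.08 (adjusted p = 0.000477).

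None of 16 tested macrophage and monocyte markers was called (median 0.13), and their sum was 183 to 504 CPM in LLC1 and 204 to 457 CPM in vehicle mice. This depended on the fit. With a block by the full title number 7 of the 16 were called higher (median 0.65), and with a block by the first title number 2 (median 0.28). All 15 T and NK cell markers were below the CPM minimum, with sums of 1.82 to 5.85 CPM and 1.76 to 3.74 CPM. Of the B cell markers only the immunoglobulin gene Ighm could be tested, and it fell by 0.80 (SE 0.21, adjusted p = 0.0193). No smooth muscle, Schwann cell or tendon cell marker was called among 10, 11 and 8 tested, and 1 of 10 adipocyte markers was. Of 19 endothelial markers 10 rose and 0 fell, at a median of 0.40. Plvap, a protein of the diaphragms of fenestrated endothelium, had 20.5 to 40.4 CPM in LLC1 mice (median 31.4) and 11.5 to 16 CPM in vehicle mice (median 14.5). These ranges were separate, and the change was 1.09 ± 0.17 (adjusted p = 0.00119). The endothelial adhesion molecule gene Esam rose by 0.69 ± 0.08 (adjusted p = 0.000173) and Ly6c1 by 0.42 ± 0.08 (0.00452). The pan-endothelial genes Cdh5 and Kdr were at 0.13 (adjusted p = 0.604) and -0.27 (0.181). The sum of the 19 markers was 1134 to 1282 CPM in 4 LLC1 mice, 880 and 810 CPM in LLC1 mice 2-4 and 2-5, and 759 to 869 CPM in vehicle mice.

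**Figure D3:**
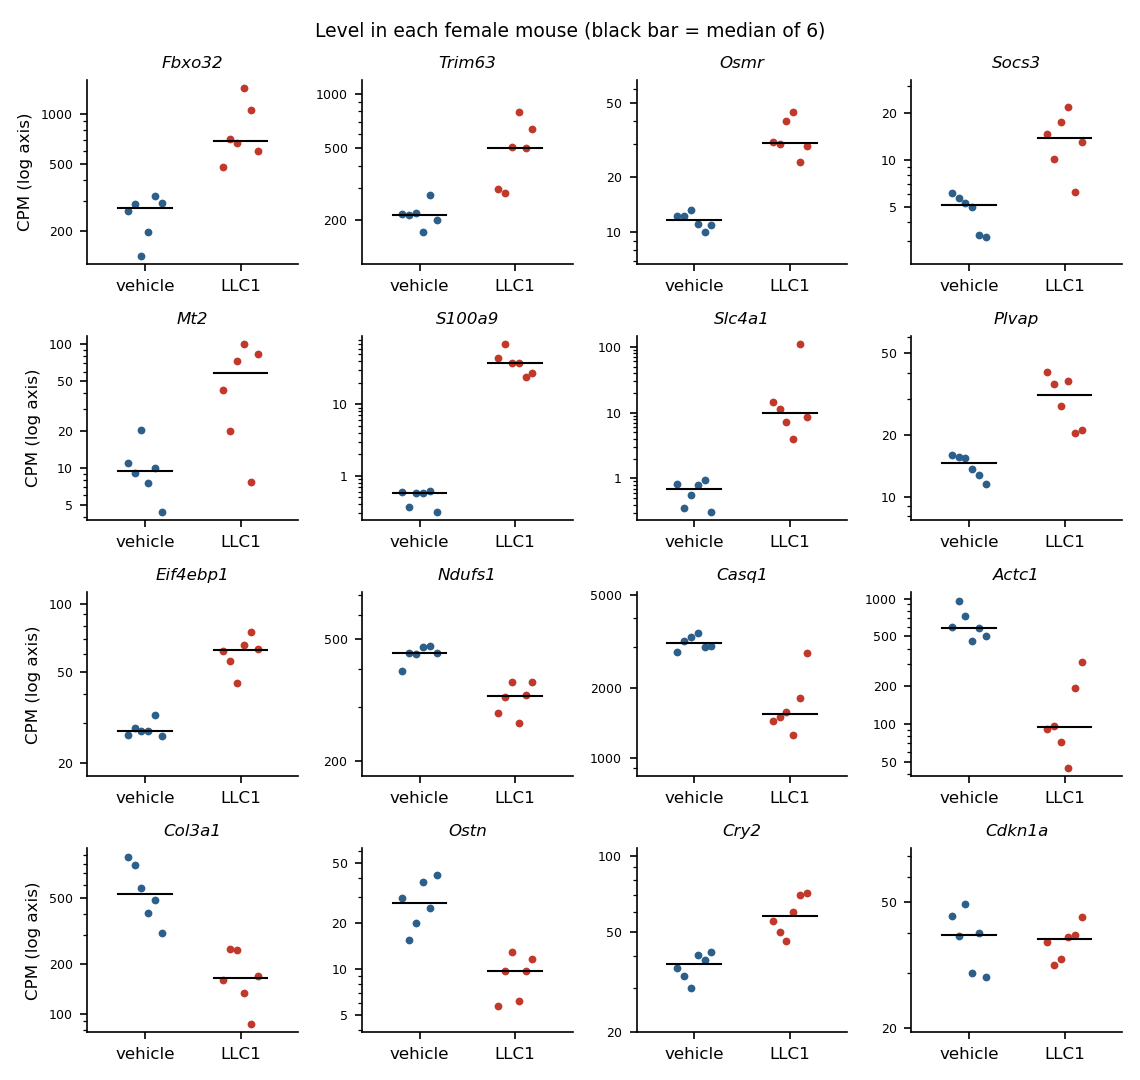
CPM of 16 genes in each of the 12 female mice on log axes, with vehicle mice in blue, LLC1 mice in red and the median of each group as a black bar. Fbxo32, Osmr, S100a9, Plvap and Eif4ebp1 show LLC1 mice above all vehicle mice, Actc1, Col3a1 and Ostn show them below, and Cdkn1a shows overlapping groups. In Slc4a1 the LLC1 mouse at 108 CPM stands far above the rest.

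Of 35 subunits of complex I, the first enzyme of the respiratory chain, 0 rose and 23 fell, against a background of 7.57% lower, and all 35 had negative log2 fold changes, with a median of -0.36. Ndufs1, a core subunit, had 267 to 364 CPM in LLC1 mice (median 326) and 395 to 476 CPM in vehicle mice (median 450). The groups did not meet (-0.48 ± 0.08, adjusted p = 0.00224). In complex III and cytochrome c, 5 of 10 fell, including Cyc1 by 0.40 (SE 0.09, adjusted p = 0.00686). In complex IV 4 of 13 fell, and in the ATP synthase 10 of 16, among them Atp5g3 by 0.48 (SE 0.10, 0.00626). These counts depend on single mice. Calls in complex I numbered 9 without vehicle mouse 2-1 or 2-3, 10 without LLC1 mouse 1-4 or 1-5, 11 without LLC1 mouse 2-3, 12 without vehicle mouse 2-2 and 15 without vehicle mouse 1-3. Leaving out 1 mouse gave 3 (vehicle mouse 2-1) to 9 (LLC1 mouse 2-5) in complex III, 0 (vehicle mouse 2-1 or 2-3) to 7 (LLC1 mouse 2-5 or vehicle mouse 1-1) in complex IV and 4 (vehicle mouse 2-1 or 2-3) to 12 in the ATP synthase. For the 37 genes encoded in mitochondria the table lists 0 counts throughout, so they could not be examined.

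The tricarboxylic acid (TCA) cycle had 15 of 19 genes lower and 0 higher (median -0.31). Idh3a, the regulated dehydrogenase of the cycle, had 375 to 540 CPM in LLC1 and 529 to 633 CPM in vehicle mice, overlapping in 1 LLC1 mouse, and fell by 0.47 (SE 0.09, adjusted p = 0.00408). Dlst, of the oxoglutarate dehydrogenase complex, fell by 0.31 (SE 0.06, 0.00506). Of 11 genes of pyruvate dehydrogenase and pyruvate import, 4 fell. Dlat, its acetyltransferase, had 89.6 to 118 CPM with LLC1 and 133 to 155 CPM without (-0.43 ± 0.07, adjusted p = 0.00124), and Mpc2, a subunit of the mitochondrial pyruvate carrier, fell by 0.47 (SE 0.10, 0.00668). In the breakdown of branched-chain amino acids and ketones, 6 of 19 fell, led by Oxct1, which starts ketone body use (-0.51 ± 0.10, adjusted p = 0.00383), and Ivd (-0.46 ± 0.09, 0.00534). Mitochondrial ribosomal proteins had a median of -0.16, and their 13 of 77 lower became 4 without vehicle mouse 2-1, 5 to 7 without LLC1 mouse 1-4, 1-5 or 2-3 or vehicle mouse 1-3, 1-4, 2-2 or 2-3, 21 without vehicle mouse 1-1 and 25 without LLC1 mouse 2-5. Fatty acid oxidation had 2 of 23 lower, 0 higher and a median of -0.08.

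Among regulators of mitochondria, Ppargc1a, which encodes the coactivator PGC-1alpha, had 30.8 to 56.8 CPM in LLC1 and 34.8 to 50.6 CPM in vehicle mice (-0.17 ± 0.14, adjusted p = 0.457). Its partner receptor gene Esrra fell by 0.44 (SE 0.10, adjusted p = 0.00867), the mitochondrial deacetylase gene Sirt3 by 0.46 (SE 0.09, 0.00366) and the inner-membrane scaffold gene Phb by 0.31 (SE 0.06, 0.00583). Of the 34 genes of this list, 2 rose and 4 fell, or 7 without LLC1 mouse 2-5.

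In glycolysis, the enzyme genes Tpi1, Pgam2 and Eno3 fell by 0.65 (SE 0.13), 0.64 (SE 0.11) and 0.63 (SE 0.12) on the log2 scale (adjusted p = 0.00514, 0.00218 and 0.00376). Of glycogen synthesis, Gyg, the glycogen primer, rose by 0.49 ± 0.07 (adjusted p = 0.000723) and Ugp2, which makes its sugar donor, by 0.49 ± 0.11 (0.00896). The basal glucose transporter gene Slc2a1 rose by 0.42 ± 0.11 (adjusted p = 0.0157). Of the 34 genes listed, 3 rose and 7 fell. Of 16 genes of the purine nucleotide cycle and creatine kinase, 4 fell and 1 rose (1 and 0 in the fit of all 24 libraries). Ampd1, the adenosine monophosphate deaminase of muscle, had 824 to 1137 CPM in LLC1 and 1169 to 1405 CPM in vehicle mice (-0.50 ± 0.09, adjusted p = 0.00214). Ampd3, an isoform found in other tissues and in atrophy, rose by 0.45 ± 0.10 (0.00909), and its groups did not overlap either.

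In lipid handling, Ucp2, a mitochondrial carrier, rose by 0.99 ± 0.23 (adjusted p = 0.0122), with 73.3 CPM in LLC1 mouse 2-4 and 28.1 to 33.2 CPM in the other LLC1 mice. Cholesterol and fatty acid synthesis had 6 of 30 genes lower and 1 higher (median -0.35). Fdps, Dhcr7 and Idi1 of the sterol branch fell by 0.35 (SE 0.05), 0.58 (SE 0.11) and 0.51 (SE 0.10), with adjusted p of 0.00116, 0.00449 and 0.00499 and no overlap between groups. The fatty acid synthase gene Fasn was at -1.44 without passing (adjusted p = 0.155). Acacb rose by 0.49 ± 0.07 (adjusted p = 0.000613). Its product makes the malonyl-CoA that restrains fatty acid entry into mitochondria.

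**Figure D4:**
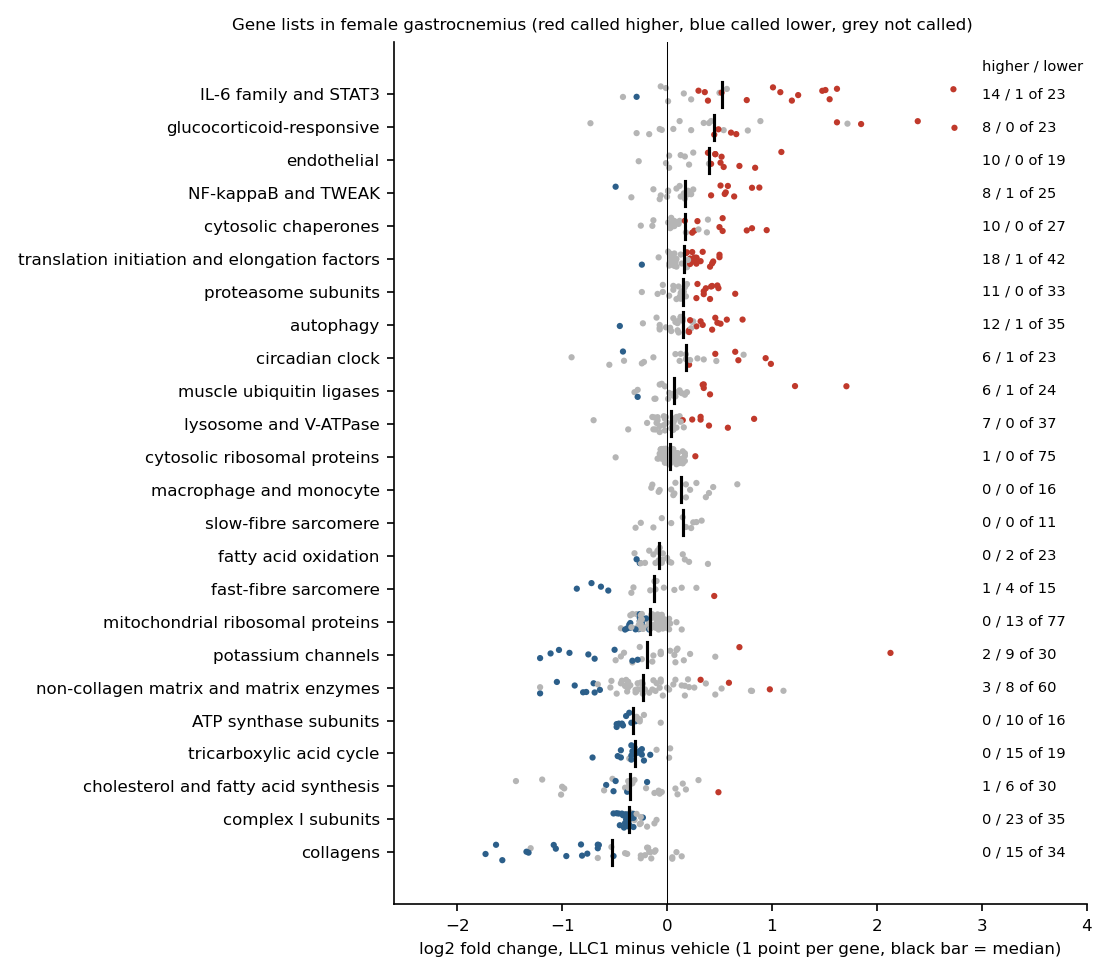
Log2 fold change (LLC1 minus vehicle, females) of every tested gene in 24 lists, 1 point per gene, with genes called higher in red, called lower in blue and not called in grey, and a black bar at the median of each list. The numbers at the right give the genes called higher and lower of those tested. IL-6 family and STAT3 genes lie mostly right of 0, and complex I subunits and collagens mostly left.

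Per kilobase of exon, Myh4, whose heavy chain marks the fastest fibres, made up 81.0 to 86.7% of the summed level of 6 skeletal heavy chain genes in LLC1 mice and 81.6 to 86.9% in vehicle mice. The slow heavy chain gene Myh7 made up 0.751 to 1.40% and 0.270 to 1.75%. Both pairs of ranges overlapped, and neither gene was called (for Myh4 -0.11 ± 0.11, adjusted p = 0.564; for Myh7 0.33 ± 0.32, adjusted p = 0.527). None of 11 slow-fibre sarcomere genes was called. Of 15 fast-fibre genes, 4 fell and 1 rose. Casq1, the calcium store protein calsequestrin of fast fibres, had 1246 to 2824 CPM in LLC1 (median 1535) and 2840 to 3440 CPM in vehicle mice (median 3108). LLC1 mouse 2-5 reached almost the vehicle range while the other 5 stayed at 1808 CPM or less, and the change was -0.86 ± 0.16 (adjusted p = 0.00376). Myl1 and Mylpf, light chains of fast myosin, fell by 0.72 (SE 0.15) and 0.56 (SE 0.13), and Pvalb, the calcium buffer parvalbumin, by 0.63 (SE 0.16), with adjusted p of 0.00583, 0.0129 and 0.0174.

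Actc1 (ENSMUSG00000068614, chromosome 2, 114047282 to 114053548), the cardiac alpha-actin that developing muscle also uses, had 44.6 to 310 CPM in LLC1 mice (median 94.3) and 460 to 966 CPM in vehicle mice (median 589). The groups were apart, and Actc1 fell by 2.25 on the log2 scale (SE 0.42, adjusted p = 0.00449), the largest fall among the 200 named genes. Ankrd2, a stretch-responsive ankyrin repeat gene, went up from 33.1 to 99.5 CPM in vehicle mice to 148 to 279 CPM in LLC1 mice (1.53 ± 0.27, adjusted p = 0.00289). Xirp1, an actin-binding repair protein, rose by 1.00 ± 0.17 (adjusted p = 0.00208). In both of these the LLC1 mice were all above the vehicle mice. At the Z-disc and thin filament 7 of 30 rose and 2 fell, and 4 rose in the fit of all 24 libraries or without LLC1 mouse 1-5 or 2-3 or vehicle mouse 1-3, 2-1 or 2-3. Those that rose include the crosslinker gene Flnc (0.72 ± 0.14, adjusted p = 0.00449) and the intermediate filament gene Des (0.30 ± 0.07, 0.0122). Mybph, a myosin-binding protein, fell by 1.17 (SE 0.30, adjusted p = 0.0192), and Smyd1, a myosin-assembly methyltransferase, by 0.34 (SE 0.07, 0.00595).

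Of 30 tested potassium channel genes, 9 fell and 2 rose. Kcnf1, a modifying subunit, had 8.74 to 20.9 CPM in LLC1 (median 11.5) and 1.20 to 3.77 CPM in vehicle mice (median 3.10), a separated rise of 2.13 ± 0.27 (adjusted p = 0.000354). Kcng4, another modifying subunit, fell by 1.21 (SE 0.22, adjusted p = 0.00362), and Kcnn2, a calcium-activated channel, by 1.11 (SE 0.17, 0.00103). Aqp4, the water channel of fast fibres, dropped from 59.0 to 85.3 CPM in vehicle mice to 19.5 to 31.5 CPM in LLC1 mice. Its groups were far apart (-1.46 ± 0.13, adjusted p = 2.36e-05). In calcium release and uptake, 4 of 32 fell (11 without LLC1 mouse 2-5, 1 in the fit of all 24 libraries) and 1 rose, with Calm2, a calmodulin gene, at -0.52 ± 0.10 (0.00325). At the neuromuscular junction, 3 of 18 genes rose and 3 fell. Musk, the agrin receptor kinase, rose by 0.75 ± 0.17 (adjusted p = 0.0108), its coreceptor gene Lrp4 fell by 0.40 (SE 0.10, 0.0154), and Hdac4, a repressor raised by denervation, rose by 0.52 ± 0.10 (0.00323).

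Of 14 factors that muscle secretes, 5 fell and 0 rose (2 fell in the fit of all 24 libraries). Ostn, the peptide osteocrin or musclin, had 5.76 to 12.9 CPM in LLC1 mice (median 9.74) and 15.6 to 41.5 CPM in vehicle mice (median 27.3), and its groups did not overlap (-1.60 ± 0.26, adjusted p = 0.00197). Fndc5, the irisin precursor, fell by 0.43 (SE 0.11, adjusted p = 0.0166) and Angptl2 by 0.76 (SE 0.15, 0.00477). Among myogenic regulators, Myf6, the factor of mature fibres, rose by 0.57 ± 0.07 (adjusted p = 0.000363), and Heyl, a Notch target of satellite cells, fell by 0.37 (SE 0.09, 0.0104). In that list 2 of 16 rose and 3 fell.

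Of 34 collagens tested, 15 fell and 0 rose, with a median of -0.52, against 7.57% lower over all genes. The 15 became 9 without vehicle mouse 1-1 or 1-3 and were at most 16 without any 1 mouse. Col3a1 (ENSMUSG00000026043, chromosome 1, 45311538 to 45349706), a main fibrillar collagen of muscle, had 86.7 to 246 CPM in LLC1 mice (median 164) and 308 to 883 CPM in vehicle mice (median 530). The ranges were separate and the change was -1.73 ± 0.30 (adjusted p = 0.00253). Of collagen V, Col5a3 fell by 1.63 (SE 0.16, adjusted p = 4.55e-05) and Col5a1 by 1.32 (SE 0.20, 0.00137). Col1a1 had 50.3 to 258 CPM with LLC1 and 147 to 714 CPM without, and the groups overlapped (-1.57 ± 0.44, adjusted p = 0.0298). Its call was lost in 5 of the 12 fits that left out 1 mouse, with adjusted p of up to 0.0685 (without LLC1 mouse 2-3).

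Of 60 other matrix genes, 8 fell and 3 rose. The 8 were 4 without LLC1 mouse 2-3 or vehicle mouse 1-3 and 5 without LLC1 mouse 1-4, 2-4 or 2-5 or vehicle mouse 1-1 or 1-4. Loxl2, which crosslinks collagen, and the proteoglycan gene Lum fell by 1.05 (SE 0.23) and 0.88 (SE 0.17), with adjusted p of 0.00873 and 0.00510, while the protease gene Adamts1 rose by 0.59 ± 0.15 (0.0167). Of 11 markers of fibro-adipogenic progenitors, the main matrix-producing cells of muscle, 3 fell and 1 rose, with Clec3b at -0.70 ± 0.15 (adjusted p = 0.00854) and Smoc2 at -0.42 ± 0.09 (0.00543). Their sum was 1189 to 2332 CPM in LLC1 and 1802 to 3014 CPM in vehicle mice. The sum of 9 tendon cell markers was 74.7 to 911 CPM in LLC1 mice, a range that held the 126 to 572 CPM of the vehicle mice. The part of cell numbers in the fall of the collagens was not tested.

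Of 23 circadian clock genes, 6 rose and 1 fell. Rora, a nuclear receptor that activates Bmal1 (Arntl), had 212 to 277 CPM in LLC1 mice and 124 to 175 CPM in vehicle mice, with a clear gap, and rose by 0.65 ± 0.09 (adjusted p = 0.000454). Cry2, a repressor of the loop, had 46.1 to 71.3 CPM against 29.9 to 41.7 CPM (0.68 ± 0.12, adjusted p = 0.00196). Arntl itself was at -0.24 (adjusted p = 0.357) and Dbp at -0.41 (0.448). The canonical E-box, CACGTG, was in the promoter of 5 of 18 clock genes that had one and in 11.7% of the 9378 genes. Hours of tissue collection are not in the labels used here.

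Of 24 immediate early genes, 7 rose and 1 fell. Ier3 rose by 1.23 ± 0.13 (adjusted p = 8.52e-05) and Klf10, a TGF-beta-inducible factor, by 1.41 ± 0.22 (0.00157), and in both the LLC1 mice were all above the vehicle mice. Nr4a1, an activity-induced nuclear receptor, fell by 0.57 (SE 0.14, adjusted p = 0.0164). Fos was at -0.63 (adjusted p = 0.548), from 5.62 to 87.7 CPM in LLC1 mice. Among p53 targets, Cdkn1a, the cell cycle inhibitor p21, had 31.7 to 45.0 CPM with LLC1 and 29.1 to 49.4 CPM without (-0.05 ± 0.13, adjusted p = 0.838). In the same list Phlda3 rose by 0.53 ± 0.10 (0.00382) and Ccng1 and Trp53inp2 fell by 0.29 (SE 0.07) and 0.54 (SE 0.11), with adjusted p of 0.0138 and 0.00643.

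Of 42 translation initiation and elongation factors, 18 rose and 1 fell (median 0.16), and of 20 aminoacyl-tRNA synthetases 6 rose and 0 fell. In the fit of all 24 libraries 8 of the 42 and 1 of the 20 rose, and the 6 synthetases were 2 without LLC1 mouse 1-4, 1-5, 2-3 or 2-4 or vehicle mouse 1-1 or 2-1 and 3 without vehicle mouse 1-3. Eef2, the translocation factor, had 1769 to 2044 CPM in LLC1 and 1331 to 1462 CPM in vehicle mice, which did not overlap (0.44 ± 0.06, adjusted p = 0.000657). Eif4b rose by 0.50 ± 0.06 (adjusted p = 0.000330) and the valyl-tRNA synthetase gene Vars by 0.60 ± 0.08 (0.000608). Of 75 cytosolic ribosomal protein genes, 1 rose and 0 fell, with a median of 0.03. Amino acid transporters had 4 of 18 higher (2 without LLC1 mouse 2-3 or vehicle mouse 1-3, 1-4 or 2-1), among them the arginine carrier gene Slc7a2 (0.79 ± 0.14, adjusted p = 0.00299) and Slc3a2, the heavy chain shared by several carriers (0.41 ± 0.07, 0.00276).

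In the stress response driven by the factor ATF4, 4 of 22 rose and 3 fell, and 2 rose in the fit of all 24 libraries or without LLC1 mouse 2-4 or vehicle mouse 1-3 or 2-1. Chac1, which degrades glutathione, had 32.9 to 162 CPM in LLC1 mice (median 77.1) and 8.91 to 24.3 CPM in vehicle mice (median 13.8). All LLC1 mice were higher (2.35 ± 0.38, adjusted p = 0.00205), whereas Atf4 was at 0.18 (0.165) and Trib3 at 0.21 (0.434). Ppp1r15a, which restarts translation after stress, rose by 0.67 ± 0.10 (adjusted p = 0.000821). Of 22 genes of endoplasmic reticulum stress, 1 rose. Cytosolic chaperones had 10 of 27 higher and 0 lower, but 3 higher in the fit of all 24 libraries, 5 without LLC1 mouse 2-3 and 6 without LLC1 mouse 1-4 or 1-5 or vehicle mouse 2-1 or 2-2. The 10 include Hsp90ab1 (0.53 ± 0.08, adjusted p = 0.000667) and the small heat shock gene Hspb7 (0.76 ± 0.18, 0.0130). In antioxidant defence, 7 of 33 rose and 2 fell, with 3 higher without LLC1 mouse 1-5 or 2-3 or vehicle mouse 2-1 and 1 in the fit of all 24 libraries. Gclm and Gsr, which make and recycle glutathione, rose by 0.74 ± 0.13 and 0.56 ± 0.09 (adjusted p = 0.00281 and 0.00114), and Gsta4, a glutathione transferase, fell by 0.70 (SE 0.09, 0.000427). Of 10 genes of polyamine synthesis and breakdown, 1 rose and 3 fell, with a median of -0.08. The gene that rose was Odc1, the first enzyme of polyamine synthesis, at 0.60 ± 0.12 (adjusted p = 0.00520).

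Males of the series, with 6 LLC1 and 6 vehicle mice of their own, gave a comparison that shares no library with the females. In the fit of all 24 libraries, 3046 of the same 13812 genes were higher (22.1%) and 2700 lower (19.5%) in male LLC1 mice. Of the 2318 genes called in females, 2249 had the same sign in males, 1856 were called there too with that sign and 6 with the opposite sign. A difference in the number of calls is not a difference in response, and the interaction of LLC1 with sex was therefore tested. With edgeR, 0 of 13812 genes (0%) passed an adjusted p under 0.05, and 1907 (13.8%) had an unadjusted p under 0.05. RLE size factors and limma-voom also gave 0, with 1900 and 1825 genes at an unadjusted p under 0.05. The smallest adjusted p was 0.0535, for Cdkn1a. Female LLC1 mice had a median of 37.2 CPM and vehicle mice 38.7 CPM, while male LLC1 mice had 74.1 CPM and vehicle mice 14.5 CPM, all scaled over the 24 libraries. The male log2 fold change was 2.22, and the difference of -2.27 (female minus male) had an unadjusted p of 3.74e-06.

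Within the lists, the values of both sexes stood as follows. For the proteasome, the median log2 fold change was 0.15 in females and 0.69 in males, where 32 of 33 genes rose (2 of 33 in females in the same fit), and 22 of 33 had an unadjusted interaction p under 0.05. For cytosolic ribosomal proteins the medians were 0.03 and 0.33, with 68 of 75 higher in males and 59 of 75 at that p. For collagens they were -0.52 and -1.19, with 6 of 34 at that p. Complex I had medians of -0.36 and -0.23, with 0 of 35. Trim63 rose by 1.22 in females and 2.88 in males (edgeR interaction, adjusted p = 0.225, 0.00202 unadjusted) and Sesn1 by 0.66 and 2.22 (0.223, 0.00152 unadjusted), whereas Chac1 rose by 2.35 in females and 0.73 in males (0.256, 0.00617 unadjusted). S100a9 was at 6.30 and 6.29 (edgeR interaction, adjusted p = 0.997, 0.989 unadjusted). None of these gene-level differences passed adjustment.

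Per2, a clock repressor, was 1 of the 6 genes called in opposite directions. It had 15.6 to 25.8 CPM in female LLC1 and 7.08 to 15.9 CPM in female vehicle mice, and 9.69 to 19.4 CPM in male LLC1 and 12.1 to 31.2 CPM in male vehicle mice. Its log2 fold changes were 0.94 and -0.61 (adjusted p = 0.00404 and 0.0262), and the difference had an unadjusted p of 3.61e-05 (adjusted p = 0.140). Cish rose by 2.73 in females and was at -0.21 in males (edgeR interaction, adjusted p = 0.142, 0.000214 unadjusted). Both were singled out after their values were seen. Each of the 4 groups had its own lane, and the same limit holds for the comparison of the sexes.

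**Figure D5:**
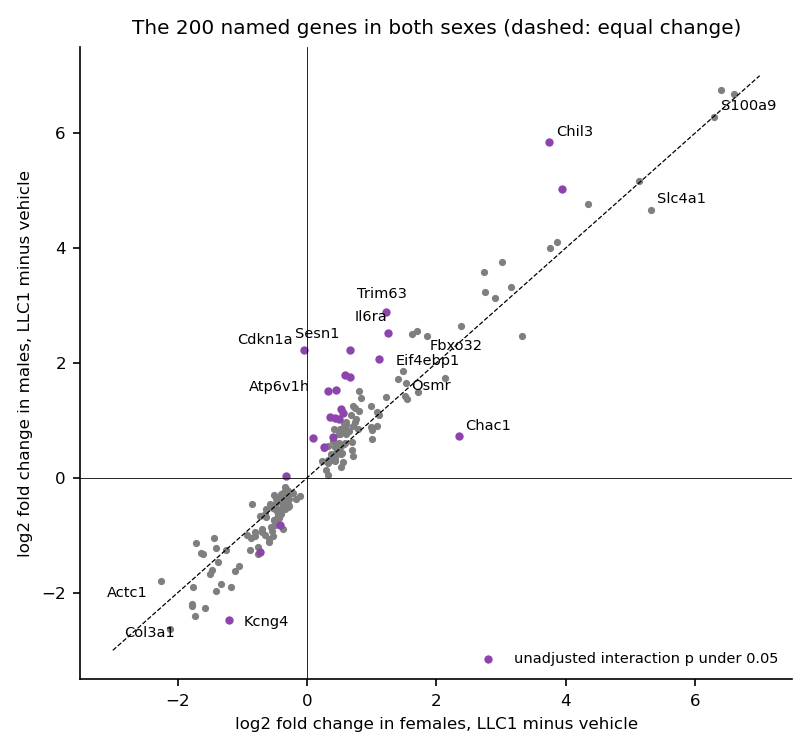
Log2 fold change with LLC1 in females (horizontal axis) and in males (vertical axis) for the 200 named genes, with genes at an unadjusted interaction p under 0.05 in purple and a dashed line of equal change. Cdkn1a lies at -0.05 in females and 2.22 in males, and Chac1 at 2.35 and 0.73.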

How the data were processed

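Poly(A) RNA of mouse gastrocnemius was sequenced from TruSeq v2 libraries, a kit that marks no strand, per the labels' protocols. The values are whole-number read counts per gene that the authors deposited in a table of 24 libraries. Per the submitters' processing notes, CASAVA, STAR, featureCounts and the build mm10 were used. Their versions and options, and the release of the annotation, were not given in the sources used here. No expression value was normalized before deposit. The 37 mitochondrial genes hold 0 counts. Genes overlapping another by at least 10% of their exon length, where the partner had at least 0.5 times their counts, were marked as sharing reads (3538 genes). Ube2c, for example, has 1.00 times the counts of Tnnc2.

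The 12 female libraries (26.2 to 45.1 M counts) were fitted with edgeR 4.0.16 in R 4.3.3 (robust quasi-likelihood, TMM factors 0.903 to 1.064, 10 residual degrees of freedom) over 14295 genes, with Benjamini-Hochberg adjusted p-values over all of them. Per-mouse CPM are TMM-scaled, except marker sums, which use total counts. Male values and the interaction come from a fit of all 24 libraries, and p-values without another name are edgeR's. Counts of replicate pairs differed beyond sampling noise (chi-square per degree of freedom 10.1 to 104.8 over 30 pairs). The fit was tested on simulated data.

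The members, the 54 pathway and 13 cell type lists and the tests were chosen with earlier results of these data known. Among called genes that kept their call, sign and size (within 1.5 times) without any 1 library and shared no reads, the named genes were the 15 largest rises and 15 largest falls and up to 3 of each direction per list by p, plus 16 fixed genes. Fmod, Dbp, Psmb5, Psmb6, Psmb7, Cish, Hba-a1, Cdh5, Kdr, Fasn, Arntl, Fos, Atf4, Trib3, Per2 and Mmp9 were added after their values were seen. A few named genes are not reported here. Alternatives were RLE (DESeq2-type), upper-quartile and total-count scaling, 3 filters, DESeq2 1.42.0, limma-voom (limma 3.58.1), all 24 libraries, a block by title number and leaving out each library.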

Additional observations from a re-analysis of the deposited data

Results flagged for a closer look

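In 34 of the 394 groups examined (197 named genes in 6 LLC1 and 6 vehicle mice), 1 mouse lay apart from the other 5 by a gap that was large against the range of the group. Chance alone gives such a gap in about 1 of 20 groups. All values are CPM.

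LLC1 mouse 2-5 had 8 of them, all high in its group. They were Casq1 at 2824, Dupd1 at 13.2, Kcnf1 at 20.9, Kcng4 at 19.0, Mdga1 at 8.10, Nrep at 39.1, Odc1 at 85.1 and Pgam2 at 1084. For Casq1, Dupd1, Kcng4, Mdga1, Nrep and Pgam2, which fell with LLC1, this mouse was the nearest of its group to the vehicle mice. LLC1 mouse 2-4 had 4, which were Slc4a1 at 108, Ucp2 at 73.3, Bnip3 at 451 and Gclm at 30.1. The other LLC1 mice had 3.96 to 14.5 for the red cell gene Slc4a1. LLC1 mouse 2-1 was high in Ankrd2 at 279 and Ppargc1a at 56.8 and low in Psmd3 at 99.8. LLC1 mouse 1-4 was low in Atp6v1h at 18.7, and LLC1 mouse 1-5 high in Pglyrp1 at 3.05.

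Vehicle mouse 1-1 had 6. It was low in Hrc at 799, Myl1 at 6551, Ndufs1 at 395 and Oxct1 at 326, and high in Bcl3 at 1.58 and Nr4a1 at 278. Vehicle mouse 2-1 was high in Foxo6os at 22.4, Nrep at 105 and Uqcrc1 at 536 and low in Txnrd1 at 55.7. Vehicle mouse 2-2 was high in Atp6v1h at 19.5, Chil3 at 1.06, Eif4ebp1 at 32.6 and Pdk4 at 643. Vehicle mouse 1-3 was low in Pprc1 at 16.3 and high in Retnlg at 1.11, and vehicle mouse 1-4 was high in Musk at 21.9.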

How the results depend on the processing

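The number of genes called higher in LLC1 females, 1272, was 767 when all 24 libraries set the spread and ranged from 818 (without LLC1 mouse 2-3) to 1396 (without LLC1 mouse 2-5). The number called lower, 1046, ranged from 721 to 1396 without the same mice. The cause was not tested. Among the other settings, DESeq2 called 1491 higher and 1477 lower, upper-quartile scaling 1059 and 1218, and total-count scaling 1252 and 845. With a replicate block by the first title number the counts were 1618 and 1487, and with a replicate block by the full title number, which only 3 numbers share between groups, 936 and 972. Libraries with the same full number had correlations of 0.06, -0.27 and -0.21, and pairs with the same first number a mean of 0.13 against -0.13 for other pairs. The labels do not say what the numbers mark. Under the block by full number 3 proteasome subunits rose and 1 fell, 1 of 20 aminoacyl-tRNA synthetases rose, and 5 collagens fell and 1 rose. In that fit 1 of 24 muscle ubiquitin ligases rose and 2 fell. Translation factors had 4 of 42 higher and autophagy genes 7 of 35. Other counts grew, with 31 of 35 complex I subunits and 23 of 77 mitochondrial ribosomal proteins lower and 7 of 16 macrophage markers higher. Cdkn1a, Igf1 and Mstn, which were not called, changed sign. Under the replicate block by full number Cdkn1a was at 0.05, Igf1 at 0.01 and Mstn at -0.02, and without single mice Cdkn1a ranged from -0.12 to 0.03. Of the 200 named genes, 35 lost their call with all 24 libraries and 36 with the block by full number, among them Trim63 (adjusted p = 0.0967). Genes below the CPM minimum, such as most lymphocyte markers, were not tested in the main fit, and those given are described by counts or sums only.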
